A study of Mus musculus with 8 samples.

Results

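Glycolysis and hypoxia-inducible factor (HIF) target genes were followed in mouse dendritic cells exposed to either of a pair of Prevotella species. The members are 37 genes chosen by name, with earlier results of these data known. Their shares beside those of all genes are therefore a description and not a test. Of the members, 23 encode glycolytic enzymes, their regulators and the glucose and lactate transporters, and 14 encode the oxygen-sensing machinery or other HIF targets. All 37 had a row among the 55376 genes of the count table, and all 37 passed the filter on low counts that left 14382 genes for testing. The cells were bone marrow-derived dendritic cells (BMDCs), antigen-presenting cells grown in culture from mouse marrow, and RNA was taken after a night with heat-killed P. heparinolytica (PH) or heat-killed P. melaninogenica (PM). Mouse strain, genotype, sex, age and bacterial dose were not given in the sources used here, and no unexposed cells were analysed here, so each difference is between the bacteria. The table has 3 PH and 3 PM columns, which carry the sample ids 1, 3 and 4 in each treatment, and PM id 1 and PH id 3 each match 2 of the 8 listed libraries by name.

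Glycolysis breaks glucose down to pyruvate. Glucose enters through transporters of the Slc2a family, hexokinases trap it as glucose 6-phosphate, and phosphofructokinase commits it to the pathway. Lactate dehydrogenase then turns pyruvate into lactate, which leaves through Slc16a transporters. HIF-1 is a transcription factor made of an oxygen-labile alpha subunit (Hif1a) and a stable partner. In oxygen, prolyl hydroxylases of the Egln family mark the alpha subunit for destruction, and when this slows HIF-1 raises most glycolytic genes and, as a feedback, Egln1 and Egln3. Dendritic cells stimulated through Toll-like receptors are known to shift towards glycolysis, and HIF-1 can be stabilised in such cells without a lack of oxygen.

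Column totals ran from 11624367 counts (PH id 3) to 40233148 (PH id 4). Levels are given as CPM, counts scaled to a common library size with TMM factors, log2 fold changes are PM over PH, and values for a treatment are listed in the order of ids 1, 3 and 4. Of 12 dendritic cell markers 11 were tested, among them Cd74 at 3313 to 4188 CPM and Itgax at 133 to 178 CPM over the 6 samples, while Cd209a was at 0 in all samples. Differences were tested with edgeR's quasi-likelihood test on all 14382 genes, with Benjamini-Hochberg (BH) adjusted p-values and a threshold of 0.05. The test was run without the ids (unblocked) and with the id as a replicate block (blocked), which compares PM with PH within each id. The labels do not say whether an id is an animal or a culture, and the p-values therefore reflect only how far these columns spread, which may be technical spread.

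Glycolysis and HIF target genes were mostly lower with PM within each id, by an amount smaller than the spread between ids. In the unblocked fit 1 of 37 fell, the HIF target Ndrg1, and 0 rose, when 1.64% of all genes tested were lower and 0.702% higher. At an unadjusted p under 0.05 by edgeR these counts were 7 lower and 0 higher. The share of all genes at an unadjusted threshold is not given here. Unadjusted counts, here and below, therefore cannot be set against the shares of adjusted calls. In the blocked fit 21 of 37 fell (56.8%) and 1 rose, Vegfa, against 8.27% lower and 7.0% higher among all genes tested. Those lower were 13 of the 23 glycolytic genes and 8 of the 14 oxygen-sensing and HIF target genes. The median log2 fold change of the members was -0.21, against 0.01 over all genes tested. It was -0.19 for the glycolytic genes and -0.38 for the others. In bulk RNA, fewer cells that express a gene and less of its RNA per cell cannot be told apart.

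Within ids, 23 of 37 members were lower with PM in all 3 ids and 1 was higher in all 3, where 22.0% of all genes tested were lower and 23.8% higher. The median difference of the members in log2 CPM was -0.12 in id 1, -0.18 in id 3 and -0.31 in id 4. The treatments did not overlap for only 3 members, Ndrg1, Egln1 and Pfkfb3, all lower with PM, which is 8.11% of the members against 9.28% of all genes, and 0 members were higher without overlap, against 10.1%. Of the 22 members called in the blocked fit, 18 had a range between the PH samples larger than their fold change. Of these 22, 14 kept their call whichever id was left out, all of them lower with PM. Leaving out id 1 kept all 22, leaving out id 3 kept 18 and leaving out id 4 kept 15. Without ids 1, 3 and 4 in turn, 24, 18 and 14 members were lower, against 8.54%, 6.34% and 5.89% of all genes tested, and 1, 0 and 1 were higher, against 5.8%, 4.37% and 4.92%. DESeq2, another count model, called 4 members lower and 0 higher unblocked (2.66% and 1.4% of all genes) and 18 lower and 1 higher with the block (5.26% and 3.27%). Slc16a1, Gpi1 and Higd1a, called in the blocked edgeR fit, were not called by DESeq2 with the block (adjusted p = 0.143, 0.0535 and 0.156).

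**Figure D1:**
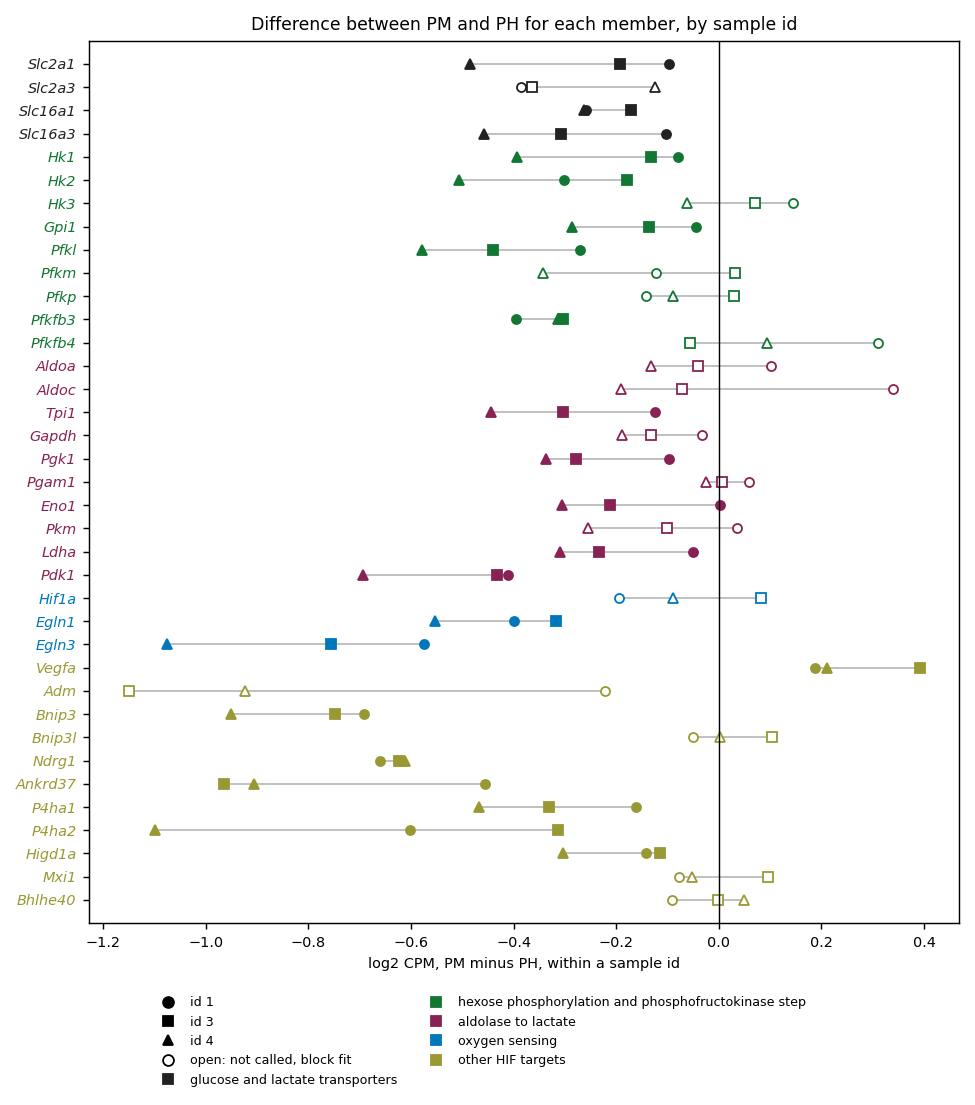
Difference in log2 CPM between PM and PH within sample ids 1, 3 and 4 for each of the 37 members, with names and symbols coloured by role and filled where the blocked fit called the gene. Most filled symbols lie left of 0, those of Vegfa lie right of it, and Hif1a, Bnip3l, Mxi1 and Bhlhe40 straddle it.

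The 4 transporters were lower with PM in all 3 ids, and 3 of them fell in the blocked fit. Slc2a1 (GLUT1), the basal glucose transporter, was at 313, 192 and 252 CPM in PH cells and at 293, 168 and 180.1 CPM in PM cells. Id 1 was the highest and id 3 the lowest in each treatment, and the treatments overlapped. Its log2 fold change was -0.25 ± 0.23 (SE) unblocked (adjusted p = 0.721 by edgeR) and -0.26 ± 0.06 blocked (adjusted p = 0.00233). Slc16a3 (MCT4), the transporter of highly glycolytic cells that carries lactate out, changed by -0.29 ± 0.05 blocked (adjusted p = 1.96e-04 by edgeR). Slc16a1 (MCT1), which moves lactate either way, changed by -0.24 ± 0.07 (adjusted p = 0.0127). Slc2a3 (GLUT3), a glucose transporter best known from neurons, was at 10.9 ± 2.33 CPM in PH cells and 8.86 ± 1.68 CPM in PM cells (SD, n = 3), and neither fit called it (blocked adjusted p = 0.0533 by edgeR). Slc2a1 and Slc16a1 lost their blocked calls without id 4 (adjusted p = 0.178 and 0.166 by edgeR).

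Of the 9 genes from hexokinase to phosphofructokinase and its regulators, 5 fell in the blocked fit, Hk1, Hk2, Gpi1, Pfkl and Pfkfb3. Hk2, the inducible hexokinase that HIF-1 raises, was at 168, 109.9 and 143 CPM in PH cells and at 137, 97.0 and 100.6 CPM in PM cells. Each id was lower with PM, while PM id 1 lay above PH id 3. The blocked log2 fold change of Hk2 was -0.34 ± 0.05 (SE, BH-adjusted p = 1.87e-05 by edgeR), and unblocked it was -0.34 ± 0.17 (adjusted p = 0.444). Hk1, the housekeeping hexokinase, changed by -0.21 ± 0.05 blocked (adjusted p = 0.00655 by edgeR, and 0.422 without id 4). Hk3, the hexokinase of myeloid cells, was at 158 ± 12.8 CPM in PH cells and 164 ± 17.8 CPM in PM cells (SD, n = 3) and was not called by either fit. Gpi1, which turns glucose 6-phosphate into fructose 6-phosphate, changed by -0.16 ± 0.05 blocked (adjusted p = 0.0267 by edgeR), and it lost this call without id 3 (0.105) or id 4 (0.476). A gene on the opposite strand overlaps 12.34% of the exon length of Gpi1.

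Pfkl, the liver-type phosphofructokinase subunit, was at 219, 148 and 199.8 CPM in PH cells and at 181, 109.0 and 134 CPM in PM cells. All 3 ids were lower with PM, id 1 was again the highest and id 3 the lowest, and the treatments overlapped. Its blocked log2 fold change was -0.43 ± 0.05 (SE, BH-adjusted p = 1.61e-07 by edgeR, 0.396 unblocked). Pfkfb3 makes fructose 2,6-bisphosphate, the strongest activator of phosphofructokinase, and is itself a HIF-1 target. It was at 612, 659 and 603 CPM in PH cells and at 465, 533 and 485 CPM in PM cells, so every PM sample was below every PH sample, and id 3 was the highest in both treatments. The log2 fold change of Pfkfb3 was -0.34 ± 0.08 unblocked (adjusted p = 0.0668 by edgeR) and -0.34 ± 0.05 blocked (adjusted p = 1.35e-06). Pfkp and Pfkm, the platelet and muscle subunits, and the related regulator Pfkfb4 were not called by either fit, at blocked log2 fold changes of -0.07 ± 0.05, -0.18 ± 0.10 and 0.12 ± 0.07.

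Of the 10 genes from aldolase to lactate and the pyruvate dehydrogenase kinase, 5 fell in the blocked fit and 5 were not called. Ldha, lactate dehydrogenase A, was at 1079, 772 and 1026 CPM in PH cells and at 1042, 656 and 828 CPM in PM cells. In id 1 the treatments were nearly level, and the gap was wider in ids 3 and 4. Ldha changed by -0.20 ± 0.05 (SE) blocked (adjusted p = 0.00529 by edgeR), and it lost this call without id 3 (0.0761) or id 4 (0.156). Gapdh, glyceraldehyde 3-phosphate dehydrogenase and a common reference gene, was at 1530.2, 1228 and 1392 CPM in PH cells and at 1496.5, 1121 and 1222 CPM in PM cells. It was lower with PM in all 3 ids by small amounts, and neither fit called it (blocked log2 fold change -0.12 ± 0.05, adjusted p = 0.104 by edgeR). Without id 1 the blocked fit did call Gapdh, Pkm and Adm.

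Pdk1 had the most negative fold change of these 10 genes. It encodes a kinase that shuts pyruvate dehydrogenase and so keeps pyruvate out of mitochondria, and it is a HIF-1 target. Its level was 46.5, 29.0 and 49.1 CPM in PH cells and 35.0, 21.5 and 30.3 CPM in PM cells. All 3 ids were lower with PM, and both id 3 samples were the lowest of their treatment. Pdk1 changed by -0.53 ± 0.07 (SE) blocked (adjusted p = 1.83e-07 by edgeR) and by -0.55 ± 0.21 unblocked (adjusted p = 0.312). Tpi1, triose phosphate isomerase (-0.29 ± 0.05), Pgk1, the first ATP-making enzyme of the pathway (-0.24 ± 0.05), and Eno1, enolase (-0.17 ± 0.05), also fell in the blocked fit. Eno1 was level in id 1 (a difference of 0.00 in log2 CPM), and it lost its call without id 3 (adjusted p = 0.164 by edgeR) or id 4 (0.370). Aldoa, Aldoc, Pgam1 and Pkm had blocked log2 fold changes between -0.11 and 0.02 and were not called. Several of these enzymes have processed pseudogenes, whose near-identical reads could be shared or lost in counting.

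Among the oxygen-sensing genes, the message of the HIF-1 alpha subunit did not pass while both tested prolyl hydroxylases that are its feedback targets fell in the blocked fit. Hif1a was at 353, 301 and 345 CPM in PH cells and at 309, 318 and 324 CPM in PM cells. The treatments overlapped, and id 3 went the opposite way from ids 1 and 4. Its blocked log2 fold change was -0.07 ± 0.05 (SE, BH-adjusted p = 0.419 by edgeR). HIF-1 alpha is controlled mainly through the stability of its protein, which these data do not measure. Egln1 (PHD2), the main hydroxylase that marks HIF-1 alpha, was at 88.4, 70.8 and 90.5 CPM in PH cells and at 67.0, 56.8 and 61.6 CPM in PM cells. Every PM sample of Egln1 was below every PH sample. Its log2 fold change was -0.44 ± 0.10 unblocked (adjusted p = 0.0681 by edgeR) and -0.43 ± 0.06 blocked (adjusted p = 3.25e-07). It passed unblocked without PH replicate 3 (adjusted p = 0.0271 by edgeR) or without PM replicate 1 (0.0398).

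Egln3 (PHD3), the hydroxylase most strongly raised by HIF, was at 95.0, 40.7 and 71.0 CPM in PH cells and at 63.8, 24.1 and 33.7 CPM in PM cells. Its spread between ids was among the widest of all members, at 1.22 on the log2 scale within PH and 1.40 within PM, with id 1 highest and id 3 lowest in both. Within ids it was lower with PM by 0.57, 0.75 and 1.07 on the log2 scale. The blocked log2 fold change was -0.81 ± 0.08 (SE, BH-adjusted p = 2.25e-07 by edgeR), and the unblocked one was -0.80 ± 0.37 (adjusted p = 0.409).

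Of the 11 other HIF targets, 6 were lower and 1 was higher in the blocked fit. Ndrg1, a stress-induced cytoplasmic protein whose message marks hypoxia in many tissues (chromosome 15, 66929318 to 66969640, minus strand, GRCm38), was at 398, 450.2 and 461 CPM in PH cells and at 252, 292 and 302 CPM in PM cells. Here id 1 was the lowest in both treatments, and the highest PM sample was below the lowest PH sample. The difference was nearly the same in each id, at -0.66, -0.62 and -0.61 in log2 CPM. Ndrg1 changed by -0.63 ± 0.09 (SE) unblocked (adjusted p = 0.00887 by edgeR) and by -0.63 ± 0.05 blocked (adjusted p = 1.96e-12). Without PH replicate 4 the unblocked adjusted p of Ndrg1 was 0.0600 by edgeR. Exons of other genes on the opposite strand overlap 19.25% of its exon length, and the strand setting of the counting was not given in the sources used here.

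Bnip3, a mitochondrial receptor that targets mitochondria for autophagy, was at 81.3, 49.9 and 81.1 CPM in PH cells and at 50.3, 29.7 and 41.9 CPM in PM cells. All ids were lower with PM, and PM id 1 lay just above PH id 3. The blocked log2 fold change of Bnip3 was -0.81 ± 0.06 (SE, BH-adjusted p = 2.59e-12 by edgeR), and the unblocked one was -0.82 ± 0.22 (adjusted p = 0.112). Its paralog Bnip3l (NIX), another mitophagy receptor, was at 122 ± 10.6 CPM in PH cells and 123 ± 6.42 CPM in PM cells (SD, n = 3) and was not called. For Bnip3 27.17% of the exon length overlaps a gene on the opposite strand, and for Bnip3l none does.

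Ankrd37, an ankyrin repeat protein gene known as a direct HIF-1 target, was at 9.40, 5.27 and 9.11 CPM in PH cells and at 6.83, 2.66 and 4.82 CPM in PM cells. It was lower with PM in each id, and its exons overlap other genes over 26.21% of their length. The blocked log2 fold change was -0.76 ± 0.12 (SE, BH-adjusted p = 1.71e-05 by edgeR, 0.317 unblocked). P4ha1 and P4ha2 encode the catalytic subunits of the enzyme that hydroxylates prolines of collagen. P4ha2 was at 15.8, 8.38 and 16.1 CPM in PH cells and at 10.4, 6.73 and 7.47 CPM in PM cells, and changed by -0.75 ± 0.11 blocked (adjusted p = 1.21e-05 by edgeR, 0.186 unblocked). P4ha1 was at 138, 98.6 and 134 CPM in PH cells and at 123, 78.4 and 97.2 CPM in PM cells, and changed by -0.32 ± 0.05 blocked (adjusted p = 3.51e-05 by edgeR, 0.482 unblocked). For both P4ha genes all ids were lower with PM and PH id 3 was below PM id 1.

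Vegfa, the vascular growth factor, was the 1 member that rose in the blocked fit, and it is described although the rule for sample-level values did not select it. It was at 133, 100.3 and 145 CPM in PH cells and at 152, 132 and 168 CPM in PM cells. All 3 ids were higher with PM while the treatments overlapped. Its blocked log2 fold change was 0.26 ± 0.05 (SE, BH-adjusted p = 2.62e-04 by edgeR), or 0.19 with adjusted p = 0.0504 without id 3, and unblocked it was 0.25 ± 0.14 (adjusted p = 0.492). Higd1a, a mitochondrial inner membrane protein gene, changed by -0.20 ± 0.06 blocked (adjusted p = 0.0214 by edgeR, 0.434 without id 4). A gene on the opposite strand overlaps 22.54% of the exon length of Higd1a. Adm, adrenomedullin, was near the lower end of detection at 1.18 ± 0.471 CPM in PH cells and 0.753 ± 0.592 CPM in PM cells (SD, n = 3), and its blocked log2 fold change of -0.72 ± 0.30 did not pass (adjusted p = 0.112 by edgeR). The transcriptional repressors Mxi1 and Bhlhe40 had log2 fold changes of -0.01 in both fits and were not called.

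**Figure D2:**
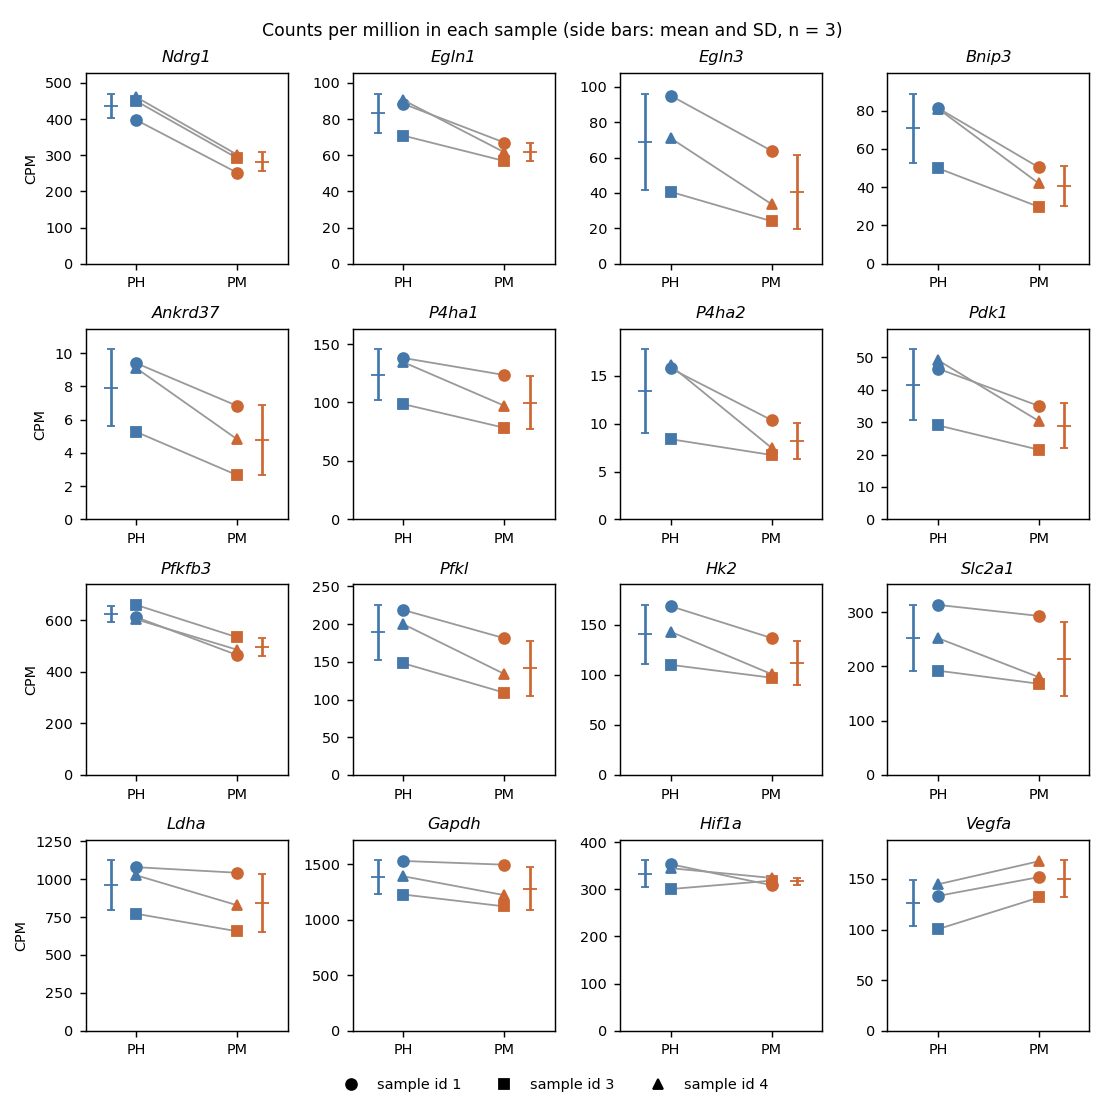
CPM of 16 members in each of the 6 samples, with lines joining the PH and PM samples of an id and side bars giving the mean and SD of 3 samples. Ndrg1, Egln1 and Pfkfb3 separate the treatments fully, the lines of Egln3, Bnip3, Ankrd37 and Pdk1 all fall, by different amounts and from different heights, and those of Vegfa rise.

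The promoters of the lowered HIF targets are shown because HIF-1 is known to bind the core letters ACGTG or GCGTG in its target genes. RefSeq promoters (GRCm38.p6) were found for 33 of the 37 members, and the table has no entry for Slc2a3, Bnip3l, Ndrg1 and Bhlhe40. The 250 bases before the start site were searched on both strands. Where a gene had several entries, the one nearest the deposited gene's 5′ end was taken. The entry used lay 8661 bases from that end for Aldoa, 6492 bases for Hif1a and at most 694 bases for the others. For Gapdh (694 bases), Slc16a3 (587) and Higd1a (566) the distance was also larger than the 250 bases searched. For these 3 genes, Aldoa and Hif1a the window therefore shares no bases with the one before the deposited 5′ end. A core match was present in 26 of the 33 members (78.8%), against 38.6% of the 32851 promoter entries of the table. It was present in 17 of the 20 members that fell in the blocked fit (85.0%) and in 9 of the other 13 (69.2%). Vegfa, Tpi1, Aldoa, Pkm, Gpi1, Hk1 and Mxi1 had no match in this window. A match is a string of letters and not a measured site. Both cores hold a CG pair, and the share over all promoters was not matched for CG content. That share also counts every entry of a gene, where each member counts with 1 entry, and it was not limited to genes tested here.

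The 5 members with an entry, a blocked call and a log2 fold change of -0.5 or lower are printed from 5′ to 3′ on the strand of the gene, ending at the base before the start site, with core matches on either strand in capitals. Overlapping matches run together, such as CACGTG, which holds ACGTG on both strands.
Pdk1 (chr2:71872974-71873223, plus strand): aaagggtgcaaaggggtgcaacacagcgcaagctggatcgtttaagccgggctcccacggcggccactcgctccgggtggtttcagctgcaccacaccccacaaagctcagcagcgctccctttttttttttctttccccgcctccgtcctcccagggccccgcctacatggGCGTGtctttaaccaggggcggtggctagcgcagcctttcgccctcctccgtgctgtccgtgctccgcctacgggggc
Egln3 (chr12:54203875-54204124, minus strand): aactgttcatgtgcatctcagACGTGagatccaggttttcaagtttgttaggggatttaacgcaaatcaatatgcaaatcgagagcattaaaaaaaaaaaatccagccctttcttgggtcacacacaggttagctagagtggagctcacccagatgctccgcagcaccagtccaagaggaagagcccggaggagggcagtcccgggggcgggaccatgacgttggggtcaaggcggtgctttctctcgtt
Bnip3 (chr7:138909507-138909756, minus strand): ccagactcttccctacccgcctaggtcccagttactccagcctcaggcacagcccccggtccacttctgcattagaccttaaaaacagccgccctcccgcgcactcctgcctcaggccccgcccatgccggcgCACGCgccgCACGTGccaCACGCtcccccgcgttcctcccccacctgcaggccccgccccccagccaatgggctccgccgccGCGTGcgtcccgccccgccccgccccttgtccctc
Ankrd37 (chr8:45999851-46000100, minus strand): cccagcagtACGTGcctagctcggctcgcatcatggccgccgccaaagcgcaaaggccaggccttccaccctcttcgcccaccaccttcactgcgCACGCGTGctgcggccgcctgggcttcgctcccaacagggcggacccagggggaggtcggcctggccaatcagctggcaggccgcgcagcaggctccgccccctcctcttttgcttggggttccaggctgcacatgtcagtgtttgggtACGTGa
P4ha2 (chr11:54100674-54100923, plus strand): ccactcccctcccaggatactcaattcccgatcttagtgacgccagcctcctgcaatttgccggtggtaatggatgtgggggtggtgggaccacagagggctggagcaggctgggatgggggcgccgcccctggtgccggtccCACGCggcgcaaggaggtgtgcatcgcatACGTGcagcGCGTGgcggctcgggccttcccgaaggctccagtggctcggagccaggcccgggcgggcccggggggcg

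These windows differ in how many matches they hold. Bnip3 has 5, of which a pair forms CACGTG and begins 108 and 107 bases before the start site. Ankrd37 has 4, the nearest beginning 6 bases before the start site, and P4ha2 has 3, between 107 and 69 bases before it. Pdk1 has 1, at 78 bases, and Egln3 has 1, at 229 bases. Egln3, with 1 match, and Bnip3, with 5, had about the same fold change (-0.81 each in the blocked fit). Because the 5 genes were picked by their fold change, they cannot show whether the number of matches goes with it.

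Members shared a pattern over the ids that the treatments did not set. In 21 of 37 members (56.8%) id 1 was the highest and id 3 the lowest in both treatments, against 10.2% of all genes tested. This held for 16 of the 23 glycolytic genes and 5 of the 14 others. The summed level of the 23 glycolytic genes was 11552, 9062 and 10735 CPM in PH cells and 11310.3, 8162 and 8952 CPM in PM cells. The gap between ids 1 and 3 within a treatment was thus larger than the gap between treatments within an id. Across the members the median range between ids was 0.40 on the log2 scale with PH and 0.42 with PM, and the median standard error of the fold change was 0.14 unblocked and 0.05 blocked. Some cell markers had the same order. The macrophage marker Adgre1 was at 635, 416 and 461 CPM in PH cells and at 609, 420 and 433 CPM in PM cells. The monocyte marker Csf1r was ordered alike, as were the dendritic cell markers Itgax and Clec10a (3.71 to 8.22 CPM). Most of the 11 tested dendritic cell markers had the opposite order. In Ccr7, Cd74, Flt3, Zbtb46, Irf8, H2-Ab1 and Fscn1 id 3 was the highest and id 1 the lowest in both treatments. Batf3 and Irf4 had neither order. The id 3 columns held 11624367 counts (PH, the shallowest column) and 29565362 counts (PM). The part of depth or of the mix of cells in this order was not tested. Among the members without this order were Ndrg1, Pfkfb3, Mxi1 and Bhlhe40, in which id 1 was not the highest in either treatment.

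Levels between genes are compared as CPM per kilobase of exon. Gapdh was the highest member with 925 ± 101.3 with PH and 856 ± 130 with PM (SD, n = 3), followed by Aldoa (751 ± 69.3 and 743 ± 119), Pkm (621 ± 84.4 and 581 ± 120) and Ldha (506 ± 86.7 and 444 ± 102). Neighbours in this order overlapped within their SD in PM, and in PH Gapdh and Aldoa did not. Bhlhe40 was the highest HIF target that is no enzyme, at 300.1 ± 17.8 with PH, before Ndrg1 at 151 ± 11.7. Slc2a3 (2.75 ± 0.588 with PH), Pfkm (3.14 ± 0.420) and Adm (0.852 ± 0.339) were the lowest. Members that were high or low with PH held about the same rank with PM.

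**Figure D3:**
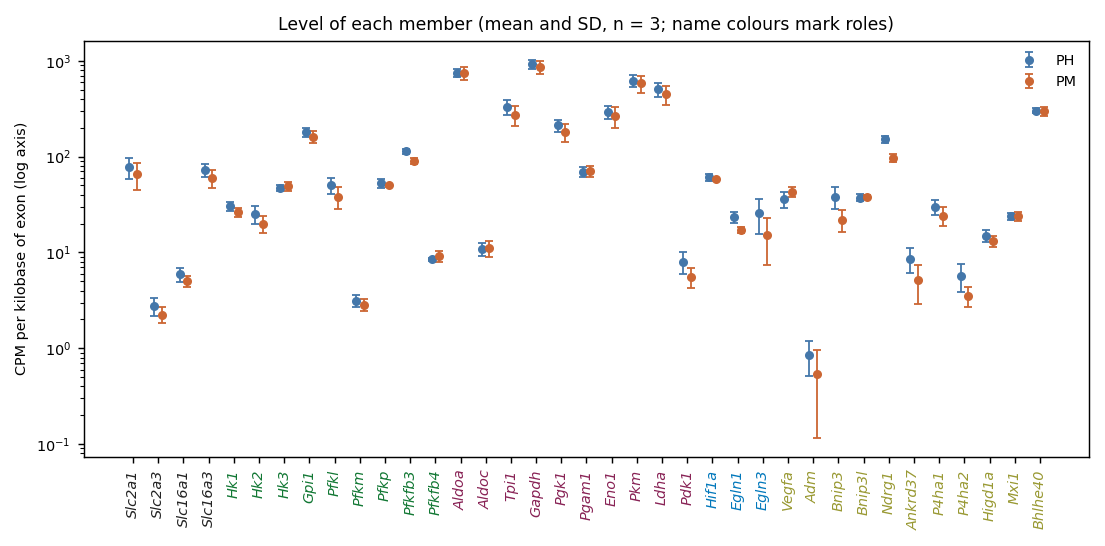
Level of each of the 37 members as CPM per kilobase of exon on a log axis, with the mean and SD of 3 samples for PH and PM and names coloured by role. Gapdh, Aldoa, Pkm and Ldha lie highest and Adm lowest, and the PM mean of Egln3, Bnip3, Ndrg1, Ankrd37 and P4ha2 lies below the PH mean.

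Within gene families, the share of each paralog in the summed level per kilobase was compared, and none of the 13 shares passed. Of hexokinase, Hk3 made up 44.7%, 48.1% and 45.5% with PH and 50.4%, 51.9% and 52.1% with PM, so all PM samples were above all PH samples. Hk1 was lower in share with PM without overlap (29.7% ± 1.26 and 27.8% ± 0.419, SD, n = 3). Bnip3l made up 46.6%, 55.6% and 47.7% of the Bnip3 and Bnip3l sum with PH and 57.7%, 69.3% and 63.8% with PM. Pfkfb4 made up 7.14%, 6.77% and 6.99% of its pair with PH and 11.1%, 7.94% and 9.07% with PM. These 4 shares did not overlap between treatments and had p = 0.1 in a two-sided exact permutation test, the smallest that 3 against 3 samples allow. The test did not use the pairing by id. Hk1 and Hk3 are shares of the same sum, so they are not separate results. After adjustment over the 13 shares computed the exact permutation p was 0.325 for each of the 4. Shares of Pfkl, Pfkp, P4ha2 and Egln3 overlapped, as did those of the Slc2a, Slc16a and Aldo pairs. Slc16a3 made up 92.5% ± 0.349 of its pair with PH and 92.2% ± 0.572 with PM, and Aldoc 1.43% ± 0.204 and 1.47% ± 0.123 (SD, n = 3).

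**Figure D4:**
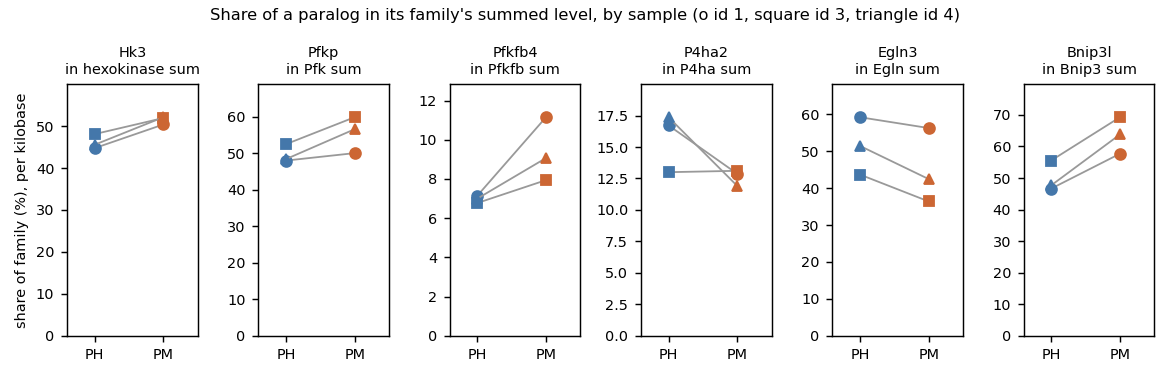
Share of 6 paralogs in the summed CPM per kilobase of their family, in percent, in each sample, with lines joining the samples of an id. Hk3, Pfkfb4 and Bnip3l are higher with PM in every sample than in any PH sample, and Pfkp, P4ha2 and Egln3 overlap.

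The rest of the pathway was read from 5 lists of related genes, also chosen with earlier results of these data known. Beside their counts, 1.64% of all genes tested fell and 0.702% rose unblocked, and 8.27% fell and 7.0% rose blocked. Of 20 other glycolysis genes tested, 1 rose unblocked and 2 fell and 1 rose blocked. The riser was Galm, which interconverts the sugar forms that enter glycolysis, at 31.2, 31.6 and 29.9 CPM in PH cells and 39.1, 39.4 and 42.5 CPM in PM cells (log2 fold change 0.39 ± 0.07 SE, edgeR adjusted p = 0.0190). The fallers were Pgm1, phosphoglucomutase of glycogen metabolism (-0.34 ± 0.05 blocked), and the transporter Slc2a6 (-0.15 ± 0.05 blocked). Of 12 genes of pyruvate entry and oxidation, 0 passed unblocked and 1 rose blocked, the pyruvate carrier subunit Mpc2 (0.23 ± 0.07), with 2 at an unadjusted p under 0.05 in the unblocked edgeR fit and 0 by DESeq2. Of 11 pentose phosphate genes, 0 passed unblocked and 1 rose blocked, the lactonase Pgls (0.24 ± 0.06), with 0 at an unadjusted p under 0.05 in the unblocked edgeR fit and 0 by unblocked DESeq2. Median log2 fold changes of these 3 lists lay between 0.00 and 0.02, next to -0.21 for the members.

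Of 20 tested genes that control HIF, 0 passed unblocked and 2 fell blocked, where 8.27% of all genes tested fell blocked. The 2 were the chaperones Hspa1a (-0.36 ± 0.10, SE) and Hsp90aa1 (-0.27 ± 0.05). Unblocked, 2 of the 20 had an unadjusted p under 0.05 by edgeR and DESeq2 called 0. Of 40 further HIF targets tested, 2 fell and 1 rose unblocked, and 18 fell (45.0%) and 4 rose blocked. Among all genes tested, 8.27% fell and 7.0% rose blocked. Stc2, stanniocalcin 2, was at 6.28, 4.66 and 6.50 CPM in PH cells and 3.58, 2.30 and 2.36 CPM in PM cells and changed by -1.14 ± 0.21 unblocked (adjusted p = 0.0270 by edgeR). Its samples did not overlap between the treatments. Bhlhe41, the paralog of the member Bhlhe40, was at 74.3, 56.4 and 70.9 CPM in PH cells and 140.5, 110.2 and 113 CPM in PM cells and changed by 0.84 ± 0.12 (adjusted p = 0.00895 by edgeR). The adenylate kinase Ak4 (-0.95 ± 0.07) and the lipoprotein receptor Vldlr (-0.86 ± 0.19) fell in the blocked fit. The median of this list was -0.15.

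Markers of other cells were read beside these results. Among all genes tested, 1.64% fell and 0.702% rose unblocked, and 8.27% fell and 7.0% rose blocked. Of 8 monocyte markers, 2 fell unblocked and 5 blocked, and their summed level was 613 to 860 CPM with PH and 581 to 845 CPM with PM. Most of that sum was Csf1r, the macrophage colony-stimulating factor receptor, with mean levels of 463 CPM in PH cells and 498 CPM in PM cells. The median log2 fold change of the monocyte markers was -0.55, more negative than the -0.21 of the members, and Ly6c2, a surface marker of inflammatory monocytes, was at 178 and 115 CPM on average in PH and PM cells (blocked log2 fold change -0.64 ± 0.05, SE). Of 9 neutrophil markers tested, 1 fell unblocked and 4 blocked, with a sum of 447 to 553 CPM with PH and 332 to 466 CPM with PM and a median log2 fold change of -0.31. Of 11 dendritic cell markers, 0 passed unblocked (2 at an unadjusted p under 0.05 by edgeR, 1 by DESeq2), and 3 fell and 1 rose blocked. Of 6 macrophage markers tested, 1 rose unblocked, and 2 rose and 1 fell blocked. Of 5 proliferation genes, 1 fell unblocked, and 2 fell and 1 rose blocked. Of 6 stromal markers 1 fell, and of 2 NK cell markers tested 1 fell, in each fit. Of 6 B cell, 7 T cell and 2 tested erythroid markers, 0 passed in either edgeR fit or by DESeq2 and 1, a B cell marker, had an unadjusted p under 0.05 in the blocked fit, with sums of at most 23.0, 35.3 and 3.45 CPM. What part such cells have in the levels of the glycolysis and HIF target genes was not tested.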

How the data were processed

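Per the labels, polyadenylated RNA of stimulated cells was made into strand-marking libraries. The authors deposited whole-number read counts per gene, without normalization, and exon lengths. The submitters' processing notes name GRCm38, featureCounts 1.6.4, STAR 2.5.3a and Trimmomatic. Not given in the sources used here are the annotation, the strand setting, the handling of multiply mapped reads, and whether the 2 columns that match 2 libraries each sum both runs. All 6 count columns were used.

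Genes were kept by filterByExpr (minimum count 10) and tested with edgeR 4.0.16 in R 4.3.3 (TMM, robust quasi-likelihood fit). DESeq2 1.42.0 was an alternative. Log2 CPM used a prior count of 2, and the standard error came from the F value. Deviations from treatment means correlated at 0.44, 0.32 and 0.24 between PH and PM samples of ids 1, 3 and 4, and samples of 1 id were treated as pairs. This rests on the counts, not on a label. No 2 columns agreed within sampling noise (chi-square per degree of freedom at least 4.63). The fits were also run on simulated data, with no id effect or with one drawn separately for each gene. Members here shared an order over the ids, which that simulation did not include. Its outcome is not given here and does not bear on their calls.

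The members and lists were chosen with earlier results of these data known. Sample values are given for members called unblocked, for those called blocked with an absolute log2 fold change of at least 0.3, and for Hif1a, Slc2a1, Hk2, Gapdh and Ldha. From related lists, genes called unblocked or among the 3 largest blocked fold changes are named. Other settings tried were RLE scaling, other low-count filters, DESeq2, and leaving out samples or ids. 1 gene of the related lists is not reported here.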

Additional observations from a re-analysis of the deposited data

How the results depend on the processing

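The count of members lower with PM was 1 unblocked and 21 with the replicate block (1.64% and 8.27% of all genes tested). It was 4 with DESeq2 (2.66%), 18 with DESeq2 and the replicate block (5.26%), and 4 with no low-count filter (1.79%). Among the 22 members with no exon overlap, which leave out Ndrg1, it was 0 unblocked by edgeR (4 at an unadjusted p under 0.05). With the replicate block 14 of these 22 were lower and 1 was higher. Their median log2 fold change was -0.27 unblocked. With the replicate block the count of all members lower was 24, 18 and 14 without ids 1, 3 and 4 (8.54%, 6.34% and 5.89% of all genes tested). Leaving out 1 sample gave 0 to 3, with 0 without PH replicate 4 (0.736%), 2 without PM replicate 1 (2.05%) and 3 without PH replicate 3 (1.11%). The count higher was 0 unblocked (0.702% of all genes tested) and 1 with the replicate block (7.0%). It was also 1 with DESeq2 and the block (3.27%), and with the block without id 1 (5.8%) or id 4 (4.92%). Related genes called numbered 4 unblocked, 29 with the replicate block and 13 with no low-count filter. They numbered 2 to 6 when 1 sample was left out, with 2 when PH replicate 1 or 4 or PM replicate 3 was absent. The genes tested in each related list are given above. Of all genes tested, 1.64% fell and 0.702% rose unblocked, 8.27% and 7.0% blocked, and 1.79% and 1.26% with no low-count filter. When 1 sample was left out, 0.736% to 2.05% fell and 0.179% to 0.744% rose. The members' median of -0.21 lay between -0.35 and -0.12 when 1 sample was left out. An alternative chosen after seeing the data left out both columns that match a run 2 library, PM id 1 and PH id 3. It gave 19 members lower (3.13% of all genes tested) and 0 higher (1.09%), at a median of -0.46. Ids 1 and 4 of PH were set against ids 3 and 4 of PM, so id and treatment cannot be told apart there.

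Directions of 8 uncalled members changed. When 1 sample was left out, log2 fold changes ran from -0.0497 to 0.109 (Hk3), -0.162 to 0.0615 (Aldoa), -0.135 to 0.1501 (Aldoc), -0.0905 to 0.114 (Pgam1), -0.286 to 0.0051 (Pkm), -0.06 to 0.0644 (Bnip3l), -0.0775 to 0.0718 (Mxi1) and -0.0677 to 0.0636 (Bhlhe40). In the blocked fit without id 1 they were -0.0126 (Hk3), -0.159 (Aldoc), -0.0212 (Pgam1), 0.0053 (Mxi1) and 0.014 (Bhlhe40). Without id 3 Bnip3l was at -0.0299, and without id 4 Aldoa was at 0.0315 and Mxi1 at 0.0089. Without both run 2 columns they were -0.112 (Hk3), -0.213 (Aldoc), -0.18 (Pgam1), -0.0491 (Bnip3l), 0.0697 (Mxi1) and 0.0928 (Bhlhe40). Share differences between PM and PH ran from -0.0435 to 0.154 percentage points for Aldoc and from -0.378 to 0.239 for Slc2a3. The cause was not tested. RLE scaling changed no member's call or direction. Adm had the lowest counts of the members, at 0.359 to 1.68 CPM.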
